A study of Mus musculus with 24 samples.

Results

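The integrated stress response and the unfolded protein response were followed through 44 listed genes of mouse Neuro2A cells: the transcription factor ATF4 and its partners, genes that ATF4 is known to activate, the stress sensors, and the chaperones and degradation factors of the endoplasmic reticulum (ER). Members were the rows of the deposited table that carried one of these symbols and reached at least 0.5 CPM (counts scaled to a common library total) in at least 3 samples, the same filter as for all genes. Of the 44 listed genes, 43 passed, among 13901 genes tested and 39253 genes listed. The exception was Vldlr, a lipoprotein receptor, which had no count in any of the 24 libraries (3 counts would have been 0.133 to 0.237 CPM there). The study compared 3 RNA-targeting CRISPR effectors directed against ataxin-2: RfxCas13d, a Cas13d nuclease, HiFi-RfxCas13d, its high-fidelity variant, and DiCas7-11, an effector of another type. Wild-type Neuro2A cells, a mouse neuroblastoma line, were transiently transfected with plasmids that carried an effector together with either a crRNA against mouse ataxin-2 (mATXN2) or a non-targeted crRNA (NTG), and harvested 48 hr later. Controls were untransfected cells and a positive control that received an ataxin-2-targeting antisense oligonucleotide (ASO), for which the labels name no effector and no dose or way of delivery. For neither control do the labels give a time of harvest. Each of the 8 groups had 3 samples, and each library was a bulk library, in which fewer cells with a transcript and less of it per cell cannot be told apart.

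Cells respond to amino acid shortage, viral RNA and protein misfolding by phosphorylating the translation initiation factor eIF2α. General translation then falls while that of ATF4 rises, and ATF4 switches on genes for amino acid synthesis, uptake and feedback control. Misfolded proteins in the ER act through the sensors PERK, IRE1 and ATF6, and the last of these, together with spliced XBP1, raises the chaperones of the ER lumen. ATF4 is controlled in large part by translation, and XBP1 by splicing, and neither step is visible in counts per gene.

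Counts summed to between 12665725 and 22504999 per library, with the ASO libraries the deepest (at least 21874644, against at most 19857305 elsewhere). Of 13 neuroblast markers, 11 averaged at least 0.5 CPM and their sum was 1186 to 1308 CPM, whereas Nefl and Nefm were near 0; of 14 markers of other cell types, 5 did, with a sum of 26.9 to 49.1 CPM. Atxn2, the target, measured 123, 125 and 121 CPM in untransfected cells and 54.1, 52.9 and 48.9 CPM with the ASO (log2 fold change -1.25, SE 0.0391, adjusted p = 1.65e-19). With the mATXN2-targeting crRNA, Atxn2 had a log2 fold change of -0.10 against NTG for RfxCas13d (adjusted p = 0.178), -0.23 for HiFi-RfxCas13d (adjusted p = 0.00157) and -0.20 for DiCas7-11 (adjusted p = 0.00557). The count table heads its effector columns EV and G12, but the samples are labelled NTG and G10. What the NTG arm received and which numbered guide the mATXN2 arm received are thus in doubt. The DiCas7-11 NTG samples differed most among themselves: chi-square per gene was 5.33 between replicates 1 and 2, 4.25 between 2 and 3 and 3.22 between 1 and 3, and counts that move when a library is left out are given without it too.

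The promoters of several members carry the letters that the factors of these responses are known to bind, and they are shown here because the members that carry them are described together in the results. Promoter windows from RefSeq (GRCm38.p6, another build than the GRCm39 of the counts) reach from 250 bases before to 50 bases after the start of a gene, and 39 of the 44 listed genes had an entry. Both strands were searched, and no 2 motifs overlapped. The ER stress response element (ERSE, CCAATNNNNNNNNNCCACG), the site of ATF6 with NF-Y, was found in 8 of 39 members and in 37 of 27025 genes in all (0.137%). Each stretch is printed in the direction of the motif, with the motif in capitals; the last motif base lay between 26 and 194 bases before the start of its gene, and Hsp90b1, which carried it at 2 positions, is shown at both.

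Hspa5, chr2:34772020-34772048, + strand: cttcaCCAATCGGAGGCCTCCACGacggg
Hsp90b1, chr10:86705633-86705661, - strand: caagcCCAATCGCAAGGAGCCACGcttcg
Hsp90b1, chr10:86705528-86705556, + strand: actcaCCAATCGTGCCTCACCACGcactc
Pdia6, chr12:17266486-17266514, + strand: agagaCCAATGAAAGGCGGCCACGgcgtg
Calr, chr8:84847070-84847098, + strand: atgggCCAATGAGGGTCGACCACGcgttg
Canx, chr11:50325795-50325823, - strand: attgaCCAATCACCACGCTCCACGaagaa
Dnajc3, chr14:118937822-118937850, + strand: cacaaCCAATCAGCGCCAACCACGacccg
Creld2, chr15:88819515-88819543, - strand: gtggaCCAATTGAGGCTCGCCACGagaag
Syvn1, chr19:6046527-6046555, + strand: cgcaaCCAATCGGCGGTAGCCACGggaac

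The core of the element that ATF4 binds with C/EBP partners (TGATGNAA, the C/EBP-ATF response element) was found in 7 of 39 members, Vldlr included, and in 1219 of all genes (4.51%). Its 5 matches before the start of a tested member are printed in the same way; the match in Trib3 lay just after the start. A match is a description of the letters and does not show that a factor was bound.

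Atf3, chr1:191183426-191183453, + strand: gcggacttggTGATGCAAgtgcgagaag
Nupr1, chr7:126625563-126625590, + strand: aagccctgtcTGATGCAAtctggccctt
Chac1, chr2:119351039-119351066, - strand: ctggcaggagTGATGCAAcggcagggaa
Asns, chr6:7693215-7693242, - strand: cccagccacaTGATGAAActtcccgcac
Herpud1, chr8:94386307-94386334, - strand: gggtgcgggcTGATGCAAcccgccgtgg

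The shorter element ERSE-II was found in 2 members, Herpud1 and Dnajb11, and in 12 of all genes (0.0444%), and the unfolded protein response element TGACGTGG in 0 members and in 0.714% of all genes. The full 250 bases before the start are given for the gene of BiP, the master chaperone of the ER, and for that of asparagine synthetase, the best known target of ATF4. For Hspa5 (chr2:34771840-34772089, + strand) the ERSE is in capitals, and for Asns (chr6:7693210-7693459, - strand) the core.

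Hspa5: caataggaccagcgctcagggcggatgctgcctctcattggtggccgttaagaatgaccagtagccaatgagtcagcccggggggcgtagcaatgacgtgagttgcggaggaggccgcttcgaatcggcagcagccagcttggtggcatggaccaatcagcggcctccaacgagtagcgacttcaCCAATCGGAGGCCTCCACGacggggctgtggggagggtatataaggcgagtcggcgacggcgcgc
Asns: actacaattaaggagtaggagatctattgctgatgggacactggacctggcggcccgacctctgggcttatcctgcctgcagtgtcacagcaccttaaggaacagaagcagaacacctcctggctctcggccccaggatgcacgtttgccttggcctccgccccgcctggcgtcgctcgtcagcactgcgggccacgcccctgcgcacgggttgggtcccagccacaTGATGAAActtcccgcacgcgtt

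Across the 8 groups, 40 of the 43 members differed by edgeR's quasi-likelihood test of any difference (Benjamini-Hochberg adjusted over all genes), against 50.3% of all genes tested. The changes were small: the highest group mean exceeded the lowest by a median of 1.20 times over the members and 1.22 times over all genes. The ASO group was the lowest of the 8 for 26 members and the highest for 7. Sesn2, Eif2ak4 and Syvn1 did not pass that test. In 18 members (41.9%) the 3 ASO samples lay outside the range of the 21 other samples, against 15.8% of all genes. In 15 of these members they lay below it (8.44% of all genes), and in 3, Ddit3, Ppp1r15a and Sel1l, above it (7.36%). Of the 14 ER chaperones and folding enzymes, 10 had all 3 ASO samples below every other sample.

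**Figure D1:**
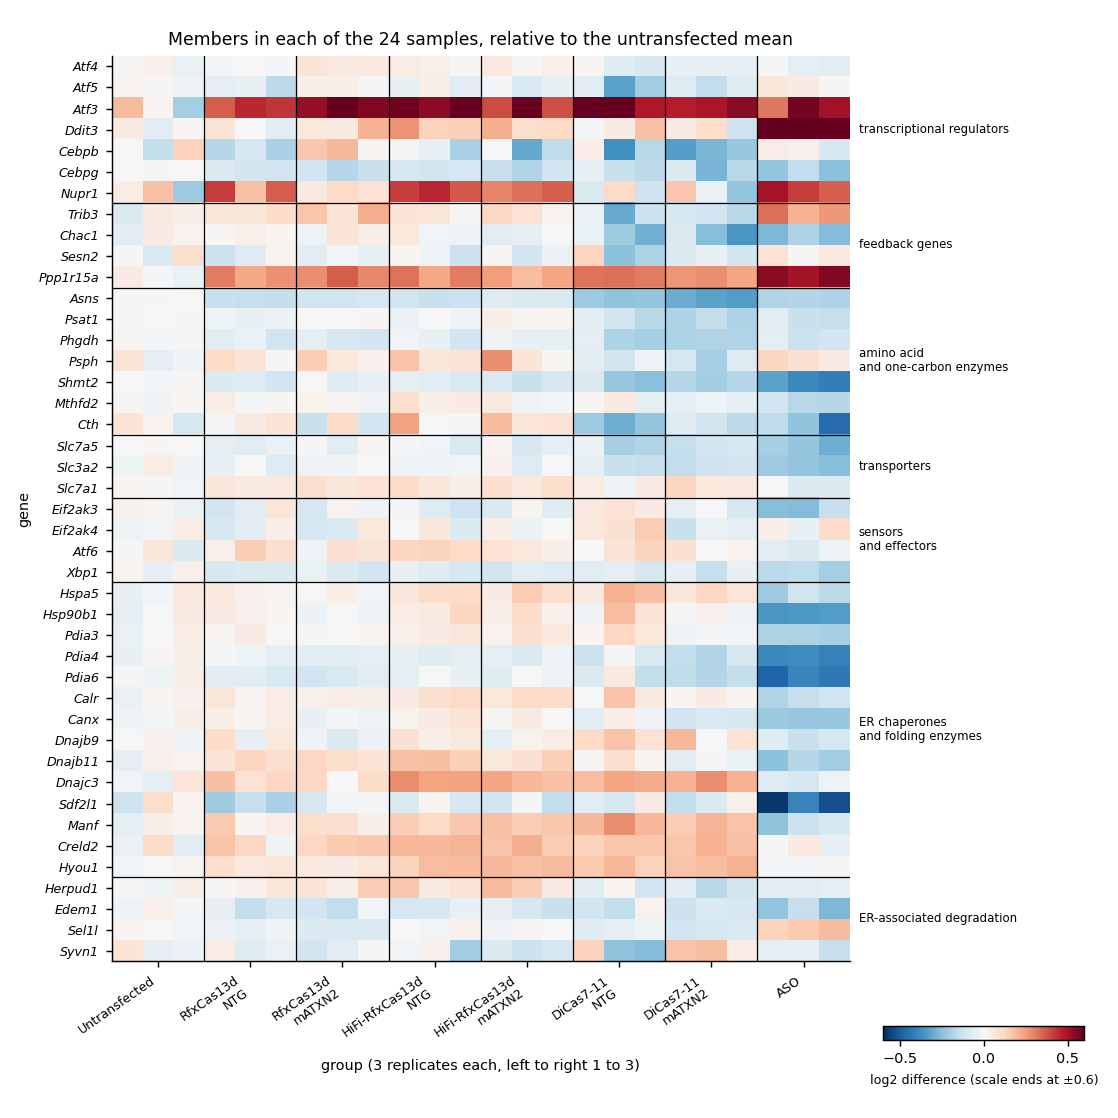
Log2 difference of each of the 43 members (rows, by role) from the mean of the untransfected samples, in each of the 24 samples (columns, 3 per group); red is higher and blue lower. Ddit3 and Ppp1r15a are deepest red in the ASO samples, most ER chaperones are blue there, and Atf3 is red in all groups except the untransfected.

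The comparison of the ASO with untransfected cells serves as a reference for knockdown of Atxn2 by another agent. Relative to untransfected cells, 29 of the 43 members (67.4%) passed the threshold of an adjusted p of 0.05, 6 higher and 23 lower, against 42.7% of all genes tested (21% higher and 21.7% lower). The higher members were stress-inducible regulators (Ddit3, Ppp1r15a, Atf3, Nupr1 and Trib3) and Sel1l, and the lower ones were 10 of 14 ER chaperones, 6 of 7 amino acid and folate-cycle enzymes, both chains of the transporter LAT1, and Cebpg, Chac1, Xbp1, Eif2ak3 and Edem1. The 2 groups did not overlap in 32 members (74.4%, against 51.8% of all genes). The median log2 fold change was -0.11 over the members and -0.002 over all genes. No group given a control oligonucleotide was analysed here, so the ASO, its delivery and the fall of Atxn2 cannot be told apart. The ASO libraries were also the deepest. With all libraries thinned to the lowest total, chosen with the results in view, the count of members called was 29 as well.

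**Figure D2:**
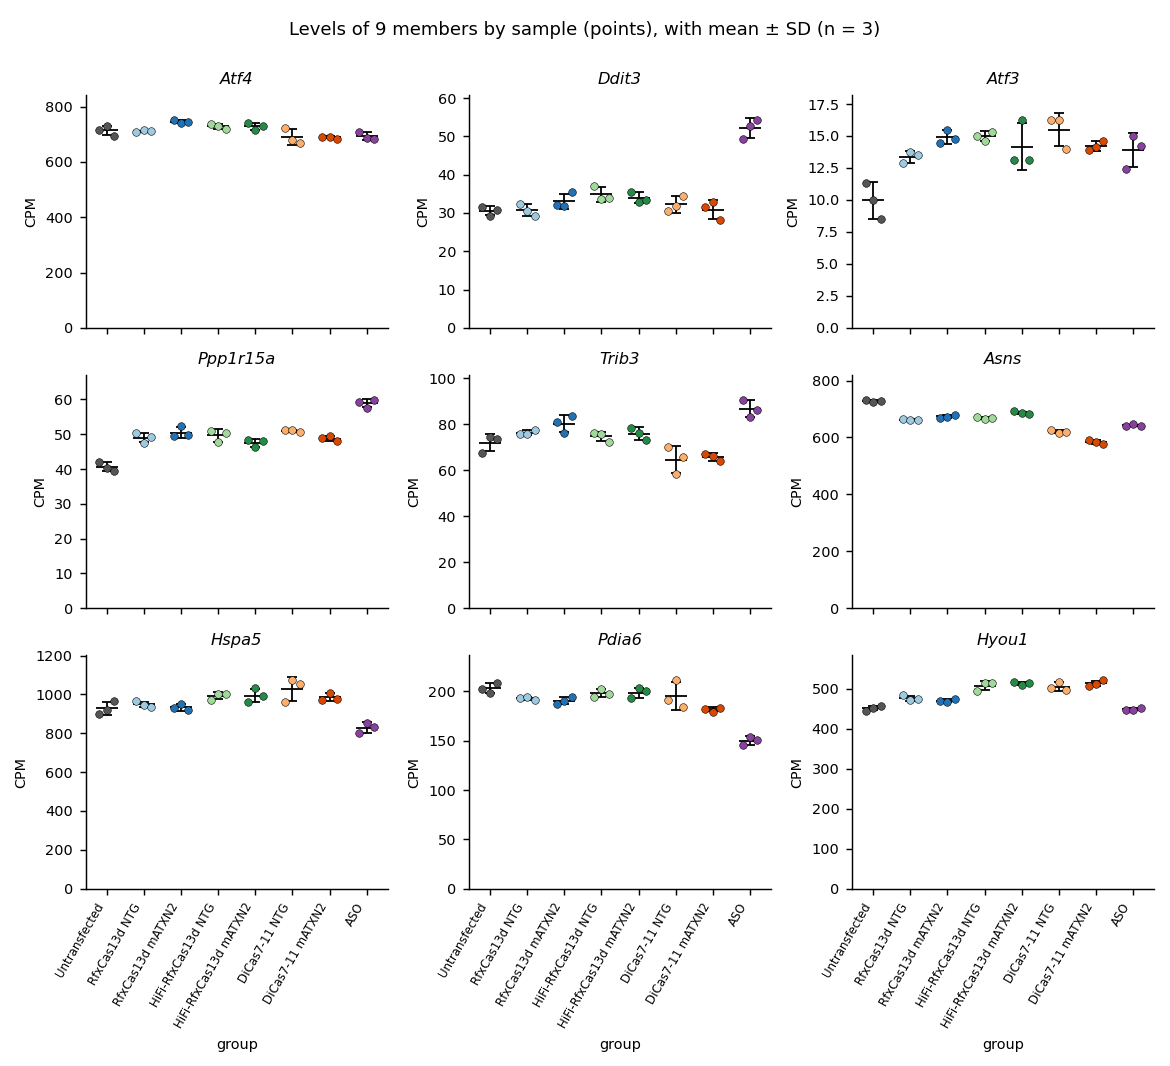
CPM of 9 members in each sample (points) by group, with the mean and SD (bars, n = 3) and axes from 0. The 3 ASO samples of Ddit3 and Ppp1r15a lie above all others and those of Hspa5 and Pdia6 below all others, whereas those of Atf4 lie within the range of the rest.

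Atf4, the central transcription factor, was not called. Its level was 717, 729.9 and 696 CPM in untransfected cells and 710.0, 689 and 682 CPM with the ASO, which overlap (log2 fold change -0.04, SE 0.0243, adjusted p = 0.157). The transfected samples measured, with RfxCas13d 710.3, 714 and 711 CPM (NTG) and 754, 742 and 744 (mATXN2), with HiFi-RfxCas13d 738, 729 and 719 (NTG) and 743, 717 and 729.7 (mATXN2), and with DiCas7-11 723, 679 and 668 (NTG) and 692, 691 and 685 (mATXN2). No comparison of the 13 called Atf4. Ddit3, the gene of CHOP, a transcription factor that ATF4 induces, had the largest rise of the members. It measured 31.6, 29.3 and 30.9 CPM in untransfected and 49.3, 52.7 and 54.4 CPM in ASO samples. Its levels elsewhere were, with RfxCas13d 32.3, 30.5 and 29.2 CPM (NTG) and 31.99, 31.7 and 35.4 (mATXN2), with HiFi-RfxCas13d 37.02, 33.7 and 33.9 (NTG) and 35.6, 32.96 and 33.3 (mATXN2), and with DiCas7-11 30.4, 31.7 and 34.6 (NTG) and 31.7, 32.9 and 28.1 (mATXN2). The 3 ASO samples thus lay above all 21 others, and Ddit3 rose by 70.5% with the ASO (log2 fold change 0.77, SE 0.0606, adjusted p = 3.02e-11). Atf3, a stress-induced repressor and activator of the same family, had 11.4, 10.01 and 8.52 CPM in untransfected and 12.4, 15.003 and 14.2 CPM in ASO samples. Transfected cells gave, with RfxCas13d 12.9, 13.7 and 13.5 CPM (NTG) and 14.4, 15.5 and 14.8 (mATXN2), with HiFi-RfxCas13d 15.02, 14.6 and 15.3 (NTG) and 13.1, 16.3 and 13.1 (mATXN2), and with DiCas7-11 16.2, 16.2 and 13.99 (NTG) and 13.9, 14.1 and 14.6 (mATXN2). The untransfected samples were the lowest of all 24, and Atf3 rose with the ASO (log2 fold change 0.47, SE 0.0974, adjusted p = 2.64e-04). Nupr1, a small stress-induced transcriptional regulator, also rose (log2 fold change 0.42, SE 0.0909, adjusted p = 4.55e-04), and Cebpg, a C/EBP partner of ATF4, fell (log2 fold change -0.21, SE 0.0418, adjusted p = 1.59e-04). Atf5 and Cebpb, a relative and another partner of ATF4, overlapped between the groups, with adjusted p of 0.486 and 0.984.

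Of the 4 tested genes of feedback and damping, 2 rose and 1 fell with the ASO. Ppp1r15a, whose product GADD34 brings a phosphatase to eIF2α and so ends the response, measured 42.02, 40.3 and 39.5 CPM in untransfected and 59.4, 57.7 and 59.8 CPM in ASO samples. In the other groups it gave, with RfxCas13d 50.3, 47.6 and 49.2 CPM (NTG) and 49.3, 52.3 and 49.6 (mATXN2), with HiFi-RfxCas13d 50.9, 47.6 and 50.4 (NTG) and 48.4, 46.3 and 47.9 (mATXN2), and with DiCas7-11 51.1, 51.2 and 50.5 (NTG) and 48.9, 49.4 and 47.98 (mATXN2). The untransfected samples were lowest, the transfected ones intermediate and the ASO samples highest, with no overlap between the 3 kinds, and Ppp1r15a rose by 44.95% with the ASO (log2 fold change 0.54, SE 0.0404, adjusted p = 1.31e-11). Trib3, a pseudokinase that holds back ATF4 and CHOP, was at 67.6, 74.6 and 73.7 CPM in untransfected and 90.5, 83.2 and 86.1 CPM in ASO samples. Over the effectors it was, with RfxCas13d 75.6, 75.7 and 77.6 CPM (NTG) and 80.9, 76.2 and 83.6 (mATXN2), with HiFi-RfxCas13d 76.1, 75.5 and 72.3 (NTG) and 78.5, 76.3 and 72.99 (mATXN2), and with DiCas7-11 69.95, 58.1 and 65.7 (NTG) and 67.2, 66.3 and 63.9 (mATXN2). The ASO samples lay above the untransfected ones, and Trib3 rose (log2 fold change 0.27, SE 0.0492, adjusted p = 5.77e-05). Chac1, which degrades glutathione, went the other way, from 44.01, 47.8 and 46.9 CPM to 38.2, 40.6 and 38.5 CPM with the ASO. Effector samples held, with RfxCas13d 46.4, 47.3 and 46.6 CPM (NTG) and 45.2, 48.97 and 47.6 (mATXN2), with HiFi-RfxCas13d 48.3, 45.6 and 45.2 (NTG) and 44.2, 44.5 and 46.2 (mATXN2), and with DiCas7-11 44.95, 39.8 and 37.7 (NTG) and 43.5, 38.7 and 36.1 (mATXN2). Every ASO sample was below the 3 untransfected ones (log2 fold change -0.24, SE 0.0585, adjusted p = 0.00124). Sesn2, a leucine sensor upstream of mTORC1, was not called (adjusted p = 0.542).

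Of the 7 enzymes of amino acid synthesis and the mitochondrial folate cycle, 6 fell with the ASO and none rose. Asns, asparagine synthetase, had 732, 725 and 729.7 CPM in untransfected and 642, 646 and 641 CPM in ASO samples. With the effectors it had, with RfxCas13d 664, 663 and 661 CPM (NTG) and 670.0, 672 and 681 (mATXN2), with HiFi-RfxCas13d 673, 665 and 667 (NTG) and 691, 687 and 683 (mATXN2), and with DiCas7-11 627, 617 and 618 (NTG) and 592, 583 and 578 (mATXN2). The untransfected samples were the highest of all 24, and Asns fell with the ASO (log2 fold change -0.18, SE 0.0175, adjusted p = 1.65e-09). Shmt2, the mitochondrial serine hydroxymethyltransferase, was at 330.1, 329 and 333 CPM untransfected and 264, 253 and 248 CPM with the ASO. The transfected samples held, with RfxCas13d 312, 313 and 305 CPM (NTG) and 332, 314 and 321 (mATXN2), with HiFi-RfxCas13d 318, 315 and 309.9 (NTG) and 310.4, 301 and 308 (mATXN2), and with DiCas7-11 312, 282 and 278 (NTG) and 293, 286 and 294 (mATXN2). All 3 ASO samples were below all 21 others, a fall of 22.9% (log2 fold change -0.37, SE 0.0315, adjusted p = 1.12e-10). Mthfd2, the next enzyme of that cycle, had 337, 329 and 336 CPM untransfected and 309, 298 and 297 CPM with the ASO. Transfection gave levels of, with RfxCas13d 345, 332 and 337 CPM (NTG) and 339, 338 and 329.6 (mATXN2), with HiFi-RfxCas13d 359, 342 and 346 (NTG) and 348, 329 and 331 (mATXN2), and with DiCas7-11 337, 348 and 321 (NTG) and 321, 328 and 321 (mATXN2). The ASO samples were again the lowest (log2 fold change -0.15, SE 0.0283, adjusted p = 8.60e-05). Of the serine pathway, Phgdh and Psat1, its first and second enzymes, fell by 6.68% and 7.53% (adjusted p = 0.00998 and 2.53e-04), whereas the last, Psph, was not called (log2 fold change 0.09, SE 0.0539, adjusted p = 0.184). Cth, which makes cysteine from cystathionine, fell by 18.3% (adjusted p = 0.00459).

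The transporter LAT1 consists of Slc7a5, the light chain that exchanges large neutral amino acids, and Slc3a2, its heavy chain. Slc7a5 measured 750.3, 758 and 750.3 CPM in untransfected and 656, 642 and 615 CPM in ASO samples. By effector it was, with RfxCas13d 723, 719.8 and 732 CPM (NTG) and 750.1, 719 and 762 (mATXN2), with HiFi-RfxCas13d 750.0, 744 and 706 (NTG) and 762, 705 and 727 (mATXN2), and with DiCas7-11 733, 655 and 665 (NTG) and 684, 695 and 699 (mATXN2). Slc3a2 had 358, 375 and 359 CPM untransfected and 313, 309 and 305 CPM with the ASO. Both chains fell by a like amount, Slc7a5 by 15.3% (adjusted p = 9.47e-07) and Slc3a2 by 15.2% (adjusted p = 4.62e-08), with no overlap of the groups. Slc3a2 was elsewhere, with RfxCas13d 351, 364 and 345 CPM (NTG) and 356, 359 and 364 (mATXN2), with HiFi-RfxCas13d 357, 358 and 360.0 (NTG) and 371, 345 and 364 (mATXN2), and with DiCas7-11 349, 331 and 331 (NTG) and 328, 334 and 337 (mATXN2). Its ASO samples were below all others. Slc7a1, which carries arginine and lysine, was not called (adjusted p = 0.112).

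Among the sensors, 2 of 4 fell with the ASO. Xbp1, the transcription factor whose mRNA the sensor IRE1 splices, had 123, 117 and 124 CPM in untransfected and 108, 109 and 105 CPM in ASO samples. In transfected cells it had, with RfxCas13d 114, 114 and 114 CPM (NTG) and 118, 114 and 112 (mATXN2), with HiFi-RfxCas13d 118, 115 and 113 (NTG) and 112, 116 and 115 (mATXN2), and with DiCas7-11 116, 117 and 113 (NTG) and 117, 110.1 and 118 (mATXN2). The ASO samples lay below all others (log2 fold change -0.17, SE 0.0315, adjusted p = 5.65e-05). Eif2ak3, the gene of PERK, fell too (log2 fold change -0.22, SE 0.0512, adjusted p = 7.54e-04). Eif2ak4, the gene of GCN2, which senses uncharged tRNA, and Atf6 overlapped between the groups, with adjusted p of 0.589 and 0.205.

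The ER chaperones were lower in the ASO samples: all 14 had a log2 fold change below 0, 10 fell and none rose, with a median of -0.18. Hspa5, the gene of BiP, whose promoter is shown above, had 899, 918 and 966 CPM untransfected and 799, 854 and 833 CPM with the ASO. Effector samples gave, with RfxCas13d 964, 943 and 937 CPM (NTG) and 928, 953 and 918 (mATXN2), with HiFi-RfxCas13d 971, 1002 and 1003 (NTG) and 960.5, 1032 and 990.4 (mATXN2), and with DiCas7-11 959, 1072 and 1054 (NTG) and 971, 1009 and 976 (mATXN2). The ASO samples were the lowest of all (log2 fold change -0.16, SE 0.0332, adjusted p = 2.17e-04). Hsp90b1, the gene of GRP94, the HSP90 of the ER, measured 1176, 1223 and 1268 CPM untransfected and 958, 963 and 968 CPM with the ASO. The remaining samples were, with RfxCas13d 1266, 1244 and 1233 CPM (NTG) and 1190.4, 1219.5 and 1195 (mATXN2), with HiFi-RfxCas13d 1262, 1268 and 1336 (NTG) and 1251, 1319 and 1248 (mATXN2), and with DiCas7-11 1205, 1388 and 1292 (NTG) and 1214, 1242 and 1197 (mATXN2). It fell by 21.2% (log2 fold change -0.34, SE 0.0337, adjusted p = 2.14e-09). Canx, the membrane chaperone calnexin, which holds glycoproteins, was at 1713, 1741 and 1788 CPM untransfected and 1495, 1492 and 1494 CPM with the ASO. Other groups had, with RfxCas13d 1794, 1763 and 1802 CPM (NTG) and 1696, 1738 and 1709 (mATXN2), with HiFi-RfxCas13d 1775, 1810.4 and 1851 (NTG) and 1754, 1816 and 1745 (mATXN2), and with DiCas7-11 1666, 1794 and 1719 (NTG) and 1616, 1639 and 1636 (mATXN2). Canx fell by 14.5% (log2 fold change -0.23, SE 0.0227, adjusted p = 3.47e-09) and its soluble relative Calr by 9.64% (log2 fold change -0.15, SE 0.0292, adjusted p = 1.66e-04).

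The protein disulfide isomerases, which form and rearrange disulfide bonds, fell with the ASO in all 3 cases. Pdia3, which works with calnexin and calreticulin, was at 632, 648 and 671 CPM untransfected and 572, 570.2 and 567 CPM with the ASO. In the other groups it was, with RfxCas13d 657, 672 and 652 CPM (NTG) and 646, 650.3 and 659 (mATXN2), with HiFi-RfxCas13d 664, 672 and 683 (NTG) and 660.1, 695 and 677 (mATXN2), and with DiCas7-11 657, 708 and 679.6 (NTG) and 636, 646 and 642 (mATXN2). The ASO samples were below all others (log2 fold change -0.19, SE 0.0250, adjusted p = 3.75e-07). Pdia4 had 162, 168 and 171 CPM untransfected and 128, 129 and 126 CPM with the ASO. By effector it had, with RfxCas13d 166, 164 and 160.3 CPM (NTG) and 159, 159.5 and 160.4 (mATXN2), with HiFi-RfxCas13d 162, 159 and 161 (NTG) and 160.3, 157 and 165 (mATXN2), and with DiCas7-11 153, 165 and 157 (NTG) and 151, 148 and 156 (mATXN2). Pdia4 fell by 23.6% (log2 fold change -0.39, SE 0.0300, adjusted p = 2.15e-11), again with the ASO samples below the rest. Pdia6 measured 202, 199 and 209 CPM untransfected and 145, 154 and 151 CPM with the ASO. The effectors gave, with RfxCas13d 193, 194 and 191 CPM (NTG) and 187, 190.5 and 194 (mATXN2), with HiFi-RfxCas13d 195, 203 and 197 (NTG) and 193, 203 and 200.1 (mATXN2), and with DiCas7-11 191, 211 and 184 (NTG) and 182, 179.5 and 184 (mATXN2). Its fall, 26.1%, was the largest of the isomerases here (log2 fold change -0.44, SE 0.0354, adjusted p = 5.76e-11).

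Of the 3 BiP co-chaperones of the DnaJ family, 1 was called with the ASO. Dnajb11 had 130.2, 138 and 137 CPM untransfected and 114, 120.0 and 117 CPM with the ASO. Elsewhere it had, with RfxCas13d 143, 148 and 144 CPM (NTG) and 147, 145 and 143 (mATXN2), with HiFi-RfxCas13d 153, 153 and 149 (NTG) and 141, 144 and 149 (mATXN2), and with DiCas7-11 136, 144 and 137 (NTG) and 129, 134 and 132 (mATXN2). It fell, with the ASO samples the lowest of all (log2 fold change -0.21, SE 0.0314, adjusted p = 3.71e-06). Dnajb9 and Dnajc3 were not called. Dnajb9 measured 31.9, 32.6 and 31.5 CPM untransfected and 30.3, 29.1 and 29.7 CPM with the ASO, without overlap (log2 fold change -0.11, SE 0.0528, adjusted p = 0.103). Its other samples were, with RfxCas13d 34.5, 30.9 and 33.5 CPM (NTG) and 31.4, 30.1 and 31.2 (mATXN2), with HiFi-RfxCas13d 34.1, 32.8 and 33.3 (NTG) and 30.7, 32.5 and 33.02 (mATXN2), and with DiCas7-11 34.8, 36.1 and 34.01 (NTG) and 36.8, 32.05 and 33.9 (mATXN2). Dnajc3, which also restrains PERK, had overlapping groups at 76.9, 74.9 and 81.9 CPM and 73.7, 72.6 and 76.2 CPM (log2 fold change -0.07, SE 0.0387, adjusted p = 0.163). Transfected cells held, with RfxCas13d 88.3, 82.7 and 84.9 CPM (NTG) and 84.8, 77.9 and 84.1 (mATXN2), with HiFi-RfxCas13d 94.4, 91.8 and 92.2 (NTG) and 91.9, 89.3 and 87.9 (mATXN2), and with DiCas7-11 88.5, 91.8 and 90.8 (NTG) and 90.2, 94.6 and 90.1 (mATXN2). Every transfected sample of Dnajc3 was above every ASO sample.

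Sdf2l1, an ER protein that works with DnaJ co-chaperones, had the largest fall of the members. It measured 31.9, 37.6 and 35.3 CPM untransfected and 23.2, 26.3 and 24.001 CPM with the ASO. The effector groups were, with RfxCas13d 29.96, 31.7 and 30.4 CPM (NTG) and 32.4, 34.5 and 34.6 (mATXN2), with HiFi-RfxCas13d 32.7, 35.2 and 32.4 (NTG) and 32.2, 34.7 and 31.4 (mATXN2), and with DiCas7-11 33.3, 32.6 and 36.1 (NTG) and 31.4, 32.9 and 35.6 (mATXN2). The ASO samples were below all 21 others, a fall of 29.9% (log2 fold change -0.51, SE 0.0646, adjusted p = 1.97e-07). Manf, a secreted factor induced by ER stress, fell by 10.2% (log2 fold change -0.16, SE 0.0407, adjusted p = 0.00262), whereas Creld2, another such gene, was not called (adjusted p = 0.918). Hyou1, which exchanges the nucleotide of BiP, was at 445, 451 and 455 CPM untransfected and 447, 447 and 452 CPM with the ASO. With effectors it was, with RfxCas13d 483, 472 and 473 CPM (NTG) and 469, 466 and 473 (mATXN2), with HiFi-RfxCas13d 494, 513 and 513 (NTG) and 516, 509.5 and 515 (mATXN2), and with DiCas7-11 502, 517 and 496 (NTG) and 507, 512 and 520.1 (mATXN2). Untransfected and ASO samples of Hyou1 overlapped and all transfected samples lay above them (log2 fold change -0.01, SE 0.0213, adjusted p = 0.853).

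In ER-associated degradation, which returns misfolded proteins to the cytosol, 1 of 4 members rose and 1 fell. Sel1l, the adaptor of the HRD1 ubiquitin ligase, had 93.1, 92.1 and 91.03 CPM untransfected and 101, 103 and 105 CPM with the ASO. Its levels with effectors were, with RfxCas13d 89.7, 88.8 and 90.7 CPM (NTG) and 86.9, 86.5 and 86.6 (mATXN2), with HiFi-RfxCas13d 92.03, 91.1 and 94.2 (NTG) and 90.6, 92.5 and 92.2 (mATXN2), and with DiCas7-11 87.5, 88.7 and 90.04 (NTG) and 85.1, 85.6 and 86.7 (mATXN2). The ASO samples were above all others (log2 fold change 0.16, SE 0.0280, adjusted p = 2.72e-05). Edem1, which recognises the trimmed glycans of misfolded proteins, fell (log2 fold change -0.21, SE 0.0412, adjusted p = 1.07e-04). Herpud1, a scaffold of the same ligase, had 71.9, 71.02 and 74.3 CPM untransfected and 69.2, 69.2 and 69.5 CPM with the ASO. In transfected samples it had, with RfxCas13d 72.9, 73.6 and 76.1 CPM (NTG) and 76.3, 74.5 and 80.6 (mATXN2), with HiFi-RfxCas13d 81.03, 75.2 and 76.6 (NTG) and 82.6, 80.2 and 74.97 (mATXN2), and with DiCas7-11 69.3, 73.1 and 66.9 (NTG) and 68.96, 64.4 and 67.03 (mATXN2). Its ASO samples lay just below the untransfected ones, and it was not called (log2 fold change -0.06, SE 0.0420, adjusted p = 0.247). Syvn1, the ligase itself, was not called (adjusted p = 0.382).

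By promoter letters, the 8 members with an ERSE split into 5 that fell with the ASO (Hspa5, Hsp90b1, Pdia6, Calr and Canx), 0 that rose and 3 that were not called. The 6 tested members with the ATF4 core split into 3 that rose (Atf3, Nupr1 and Trib3), 2 that fell (Chac1 and Asns) and Herpud1. Of all genes, 21% were called higher with the ASO and 21.7% lower, and of the 43 members 6 and 23. The ER chaperones Pdia3, Pdia4, Dnajb11 and Sdf2l1, which had a promoter entry without an ERSE match, fell as well. Whether the letters bear on the changes was not tested. The count of 29 members was 28 to 30 when each library was left out in turn, and 29 in each of the 7 alternatives of processing.

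**Figure D3:**
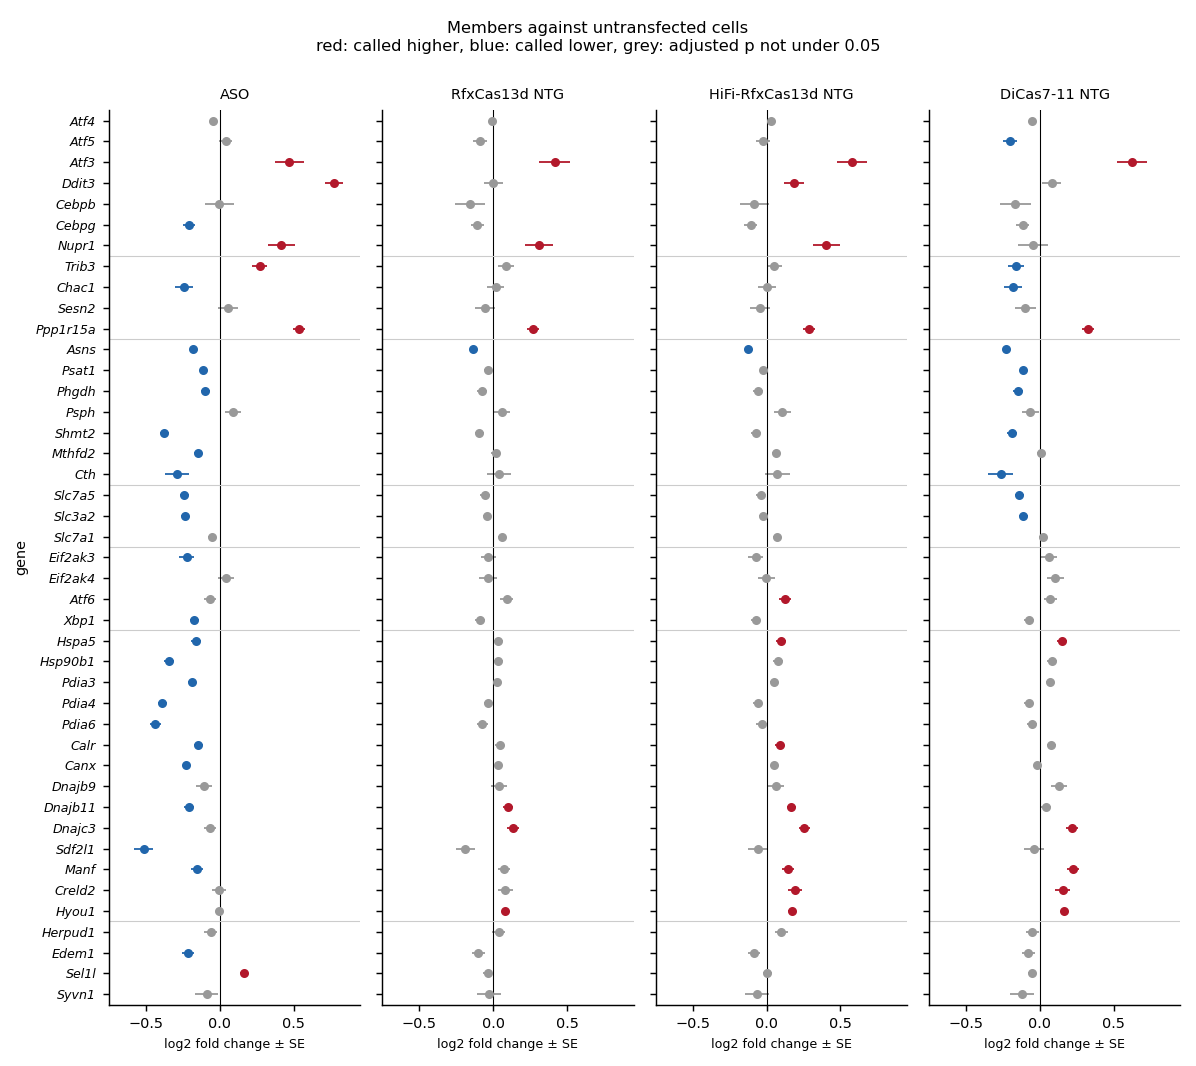
Log2 fold change against untransfected cells with its SE (bars) for the 43 members (rows, by role) in 4 comparisons (panels) that share the untransfected samples. The ASO panel has 23 blue points, mostly enzymes, transporters and ER chaperones, and the RfxCas13d and HiFi-RfxCas13d panels hold 1 blue point each, Asns.

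The NTG arm of each effector was compared with untransfected cells to show what changed with transfection and an effector, without a crRNA against ataxin-2; plasmid, lipid and effector cannot be told apart in it. The 3 comparisons share the untransfected samples with each other and with the ASO, so their values are set side by side and their likeness was not tested. With RfxCas13d, 7 members were called, 6 higher and 1 lower, or 16.3% against 11.3% of all genes (5.6% higher and 5.66% lower). With HiFi-RfxCas13d there were 13, 12 higher and 1 lower, or 30.2% against 20.9% (10.3% and 10.6%). With DiCas7-11 there were 17, 7 higher and 10 lower, or 39.5% against 21.9% (11.1% and 10.8%). Leaving out libraries moved these counts, but how many of all genes each such fit called was not counted. For RfxCas13d the count was 3 without NTG replicate 1, 4 without NTG replicate 3 and 4 without untransfected replicate 1, for HiFi-RfxCas13d it was 8 without untransfected replicate 1, and for DiCas7-11 it was 24 without NTG replicate 1. Setting the mATXN2 arm against untransfected cells instead, an alternative added later, gave 7, 15 and 20, against 12%, 22.2% and 25.3% of all genes.

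Of the regulators, Atf3 rose in all 3 NTG arms, by 0.41, 0.58 and 0.62 on the log2 scale with RfxCas13d, HiFi-RfxCas13d and DiCas7-11 (adjusted p = 0.00768, 1.14e-04 and 4.32e-05; 0.0520 with RfxCas13d without untransfected replicate 3). Every sample of the NTG arms was above every untransfected sample. Ppp1r15a rose likewise, by 0.27, 0.29 and 0.32 on the log2 scale (adjusted p = 7.27e-05, 1.64e-05 and 2.71e-06). Ddit3, which had the largest rise with the ASO, was at 0.00207 for RfxCas13d and 0.08 for DiCas7-11 (adjusted p = 0.991 and 0.452). With HiFi-RfxCas13d it was called (log2 fold change 0.19, SE 0.0659, adjusted p = 0.0419), but not by DESeq2 (adjusted p = 0.0529), with thinned libraries (0.0698) or with the mATXN2 arm (0.106), nor without any 1 of the untransfected samples or NTG replicate 1 or 3 (adjusted p = 0.0529 to 0.181). Nupr1 rose with RfxCas13d (log2 fold change 0.31, SE 0.0956, adjusted p = 0.0342) and HiFi-RfxCas13d (log2 fold change 0.41, SE 0.0944, adjusted p = 0.00245) and had a log2 fold change of -0.05 with DiCas7-11 (adjusted p = 0.789). With the mATXN2 arm of RfxCas13d in place of NTG, Nupr1 was not called (log2 fold change 0.07, adjusted p = 0.725). With that of HiFi-RfxCas13d it was (log2 fold change 0.32, adjusted p = 0.0151). Atf5 fell with DiCas7-11 (log2 fold change -0.20, SE 0.0463, adjusted p = 0.00187), but was not called with the mATXN2 arm in place of NTG (log2 fold change -0.10, adjusted p = 0.111).

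Asns fell in all 3 NTG arms, by 9.10% with RfxCas13d, 8.32% with HiFi-RfxCas13d and 14.8% with DiCas7-11 (adjusted p = 2.64e-06, 7.66e-06 and 1.71e-10). Each NTG sample was below each untransfected sample. With the Cas13d effectors Asns was the only enzyme called. With DiCas7-11, 5 of 7 enzymes fell (Asns, Psat1, Phgdh, Shmt2 and Cth), by 7.48% for Psat1, 9.79% for Phgdh, 12.2% for Shmt2 and 16.8% for Cth. In the mATXN2 arm of DiCas7-11 against untransfected cells 4 of 7 were lower. There Cth was not called (log2 fold change -0.12, adjusted p = 0.318). Both LAT1 chains fell in the NTG arm of DiCas7-11 as well, Slc7a5 by 9.13% (adjusted p = 0.00320) and Slc3a2 by 7.44% (adjusted p = 0.00424). Of the feedback genes, Trib3 (log2 fold change -0.16, SE 0.0532, adjusted p = 0.0296) and Chac1 (log2 fold change -0.18, SE 0.0612, adjusted p = 0.0298) fell with DiCas7-11, each with overlapping samples, and both calls were lost when only the samples compared were fitted (adjusted p = 0.134 and 0.0957). Without untransfected replicate 2 or 3 or NTG replicate 2, both were lost too, at adjusted p of 0.152, 0.0953 and 0.282 for Trib3 and 0.134, 0.0785 and 0.108 for Chac1, and without NTG replicate 3 so was Chac1 (0.179). Trib3 was further lost with the mATXN2 arm (0.0731) and Chac1 with thinned libraries (0.0712). Slc3a2 was lost without untransfected replicate 2 (adjusted p = 0.0554) and with only the samples compared (0.0717).

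**Figure D4:**
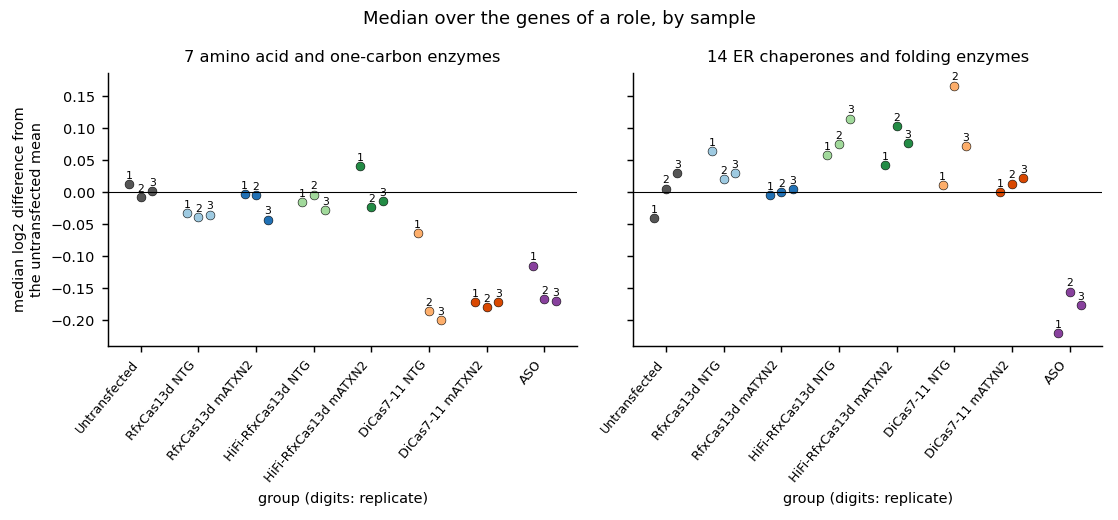
Median over the genes of a role of the log2 difference from the untransfected mean, for each sample (points, digits give the replicate) by group. The enzymes (left) lie at -0.17 to -0.18 in the DiCas7-11 mATXN2 samples and between -0.06 and -0.20 in the NTG samples, and the ER chaperones (right) are lowest in the ASO samples.

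The median over the 7 enzymes was -0.06 on the log2 scale in DiCas7-11 NTG replicate 1, against -0.18 and -0.20 in replicates 2 and 3 and -0.17, -0.18 and -0.17 in the mATXN2 samples of DiCas7-11. The samples of the Cas13d effectors lay between -0.04 and 0.04, and the ASO samples between -0.17 and -0.11. For the 14 ER chaperones the 3 DiCas7-11 NTG samples were at 0.01, 0.17 and 0.07, with replicate 2 the farthest from the others.

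The ER chaperones called in the NTG arms were all higher than in untransfected cells. With RfxCas13d 3 of 14 rose, with HiFi-RfxCas13d 7 and with DiCas7-11 5, and none fell. In the mATXN2 arms against the same untransfected samples, 1, 7 and 4 of 14 were higher, and with DiCas7-11 3 were lower, Pdia4, Pdia6 and Canx. Hyou1 rose in all 3, by 5.65%, 12.5% and 12.1% in that order (adjusted p = 0.0157, 1.88e-06 and 2.47e-06). Dnajc3 rose by 9.69%, 19.4% and 16.4% (adjusted p = 0.0270, 2.33e-05 and 1.72e-04). Each NTG sample of both genes was above the untransfected ones. With RfxCas13d the call of Hyou1 was lost without untransfected replicate 1 or NTG replicate 1 (adjusted p = 0.0717 and 0.0819) and with the mATXN2 arm in place of NTG (adjusted p = 0.0750). That of Dnajc3 was lost with only the samples compared (adjusted p = 0.0556), with thinned libraries (0.0529), with the mATXN2 arm (0.207) and without untransfected replicate 1 or 2 or NTG replicate 1 or 3 (adjusted p = 0.0616 to 0.129). Hspa5 rose with HiFi-RfxCas13d (log2 fold change 0.10, SE 0.0333, adjusted p = 0.0356) and DiCas7-11 (log2 fold change 0.15, SE 0.0333, adjusted p = 0.00154), in the latter with overlapping samples, and had a log2 fold change of 0.03 with RfxCas13d (adjusted p = 0.608). With HiFi-RfxCas13d its call was lost without untransfected replicate 1 or 2 or NTG replicate 2 or 3 (adjusted p = 0.0963 to 0.171), and with DiCas7-11 when the mATXN2 arm took the place of NTG (0.0526). Manf and Creld2 rose with HiFi-RfxCas13d (log2 fold changes 0.14 and 0.19, adjusted p = 0.0127 and 0.00395) and with DiCas7-11 (0.23 and 0.15, adjusted p = 1.89e-04 and 0.0224). Dnajb11 rose with RfxCas13d (log2 fold change 0.10, SE 0.0318, adjusted p = 0.0375) and HiFi-RfxCas13d (log2 fold change 0.17, SE 0.0316, adjusted p = 3.19e-04); with RfxCas13d the call was lost by DESeq2 (adjusted p = 0.0502), without the filter (0.0626), with only the samples compared (0.0568), with thinned libraries (0.0642) and without untransfected replicate 1 or any of the NTG samples (adjusted p = 0.0531 to 0.202). Calr (log2 fold change 0.09, SE 0.0293, adjusted p = 0.0296) and the sensor Atf6 (log2 fold change 0.12, SE 0.0415, adjusted p = 0.0333) rose with HiFi-RfxCas13d. Neither was called in a test between NTG arms. With the mATXN2 arm in place of NTG, Calr was called (log2 fold change 0.10, adjusted p = 0.0171). Atf6 was not (log2 fold change 0.06, adjusted p = 0.346). Sdf2l1, Pdia4 and Pdia6, which fell furthest with the ASO, were not called in any NTG arm, nor was any of the 4 genes of ER-associated degradation. With DiCas7-11 and mATXN2, however, Pdia4 (log2 fold change -0.14, adjusted p = 8.89e-04) and Pdia6 (log2 fold change -0.16, adjusted p = 0.00139) were lower than in untransfected cells. So was Sel1l, of ER-associated degradation (log2 fold change -0.10, adjusted p = 0.00996). Herpud1, of the same role, was higher with HiFi-RfxCas13d and mATXN2 (log2 fold change 0.13, adjusted p = 0.0274).

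Differences between the effectors were tested on their NTG arms. HiFi-RfxCas13d and RfxCas13d differed in 1 member, Hyou1 (log2 fold change 0.09, SE 0.0213, adjusted p = 0.0402; 2.33% against 0.619% of all genes, 0.115% higher). That call was lost in the 5 fits that left out a library other than HiFi-RfxCas13d NTG replicate 1 (adjusted p = 0.0576 to 0.251). DiCas7-11 and RfxCas13d differed in 7 members (16.3% against 3.39% of all genes, 1.1% higher and 2.29% lower). Relative to RfxCas13d, Trib3 (log2 fold change -0.25, SE 0.0522, adjusted p = 0.00631), Asns (log2 fold change -0.09, SE 0.0177, adjusted p = 0.00188), Nupr1 (log2 fold change -0.36, SE 0.0955, adjusted p = 0.0346) and Cth (log2 fold change -0.30, SE 0.0847, adjusted p = 0.0426) were lower, and Hspa5 (log2 fold change 0.12, SE 0.0332, adjusted p = 0.0461), Manf (log2 fold change 0.15, SE 0.0405, adjusted p = 0.0306) and Hyou1 (log2 fold change 0.09, SE 0.0214, adjusted p = 0.0235) were higher. The samples of Hspa5 overlapped, and those of the others did not. The call of Hspa5 was lost in every fit that left out a library except DiCas7-11 NTG replicate 1 (adjusted p = 0.0762 to 0.253), that of Hyou1 without RfxCas13d NTG replicate 2 or 3 or DiCas7-11 NTG replicate 2 (adjusted p = 0.0896 to 0.133) and that of Trib3 without the last (adjusted p = 0.0891). Fitted to the samples compared alone, none of the calls between NTG arms held. Thinned libraries also ended those of Hspa5 (0.0664) and Hyou1 (0.0933) against RfxCas13d, limma-trend that of Hspa5 (0.0509) and fits without the filter that of Hyou1 (0.0622). DiCas7-11 and HiFi-RfxCas13d differed in 3 members (6.98% against 0.705% of all genes, 0.504% lower), all lower with DiCas7-11: Nupr1 (log2 fold change -0.45, SE 0.0943, adjusted p = 0.0125), Trib3 (log2 fold change -0.21, SE 0.0522, adjusted p = 0.0469) and Asns (log2 fold change -0.11, SE 0.0177, adjusted p = 0.00108). The call of Trib3 against HiFi-RfxCas13d was lost in every fit that left out a library except DiCas7-11 NTG replicate 1 (adjusted p = 0.0613 to 0.248). Without that replicate the counts were 15 against RfxCas13d and 12 against HiFi-RfxCas13d, with no count over all genes to set beside them. Leaving out RfxCas13d NTG replicate 1, 2 or 3 gave 4, 3 or 2 members against RfxCas13d, and leaving out DiCas7-11 NTG replicate 2 or 3 gave 2 or 3. Against HiFi-RfxCas13d the count was 1 without its NTG replicate 2 or without DiCas7-11 NTG replicate 3.

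The central comparison of the study, of a crRNA against ataxin-2 with the NTG crRNA, called 1 member in all. With RfxCas13d, edgeR called 0 of 43 (1.39% of all genes), with 6 at an unadjusted p under 0.05 (1913 of the 13901 genes tested). There limma-trend and DESeq2 called 0 (5.09% and 1.97% of all genes). Fitted to these samples alone, edgeR called 2 (2.55% of all genes). With HiFi-RfxCas13d it called 0 (0.295% of all genes), with 2 at an unadjusted p under 0.05 (1035 of all genes). The other tools again called 0 (1.94% of all genes by limma-trend and 0.475% by DESeq2). With DiCas7-11 edgeR called 1 member, lower (0.942% of all genes, 0.388% lower), with 13 at an unadjusted p under 0.05 (1951 of all genes). There limma-trend called 6 (4.58% of all genes) and DESeq2 3 (2.06%). DESeq2 gave an adjusted p for 33, 30 and 28 of the members in these comparisons. The median SE of a member's log2 fold change was 0.0410, 0.0398 and 0.0399.

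The called member was Asns. Its DiCas7-11 samples, given above, lay between 578 and 592 CPM with mATXN2, below all 3 NTG samples (log2 fold change -0.09, SE 0.0178, adjusted p = 0.0119). The call was lost without the filter on low counts (adjusted p = 0.0689), with only the samples compared (adjusted p = 0.424), and without mATXN2 replicate 3 (adjusted p = 0.0759), which left 0 members. Without NTG replicate 1 there were 7 members, and without NTG replicate 3 there were 2. The calls over all genes in those fits were not counted. With the Cas13d effectors Asns differed by 0.04 for HiFi-RfxCas13d (adjusted p = 0.599) and by 0.03 for RfxCas13d (adjusted p = 0.575). Ddit3 had log2 fold changes of 0.11, -0.04 and -0.06 in the order RfxCas13d, HiFi-RfxCas13d, DiCas7-11 (adjusted p = 0.505, 0.951 and 0.743), and Hspa5 of -0.02, 0.00324 and -0.06 (adjusted p = 0.831, 0.994 and 0.415). With RfxCas13d the member nearest to a call was Cebpb, 22.8% higher with mATXN2 (unadjusted p = 0.00612, adjusted p = 0.144), and Nupr1 was 15.3% lower (unadjusted p = 0.0166, adjusted p = 0.223), both without overlap of the samples. Atf4 was 4.87% higher with RfxCas13d and mATXN2, with no overlap of the samples and an unadjusted p of 0.00895, but not after adjustment (adjusted p = 0.173). Canx and Pdia3 came nearest to a call among the ER chaperones, both lower with DiCas7-11 and mATXN2 (log2 fold change -0.08, SE 0.0228, adjusted p = 0.0766 for Canx, log2 fold change -0.09, SE 0.0250, adjusted p = 0.0843 for Pdia3).

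**Figure D5:**
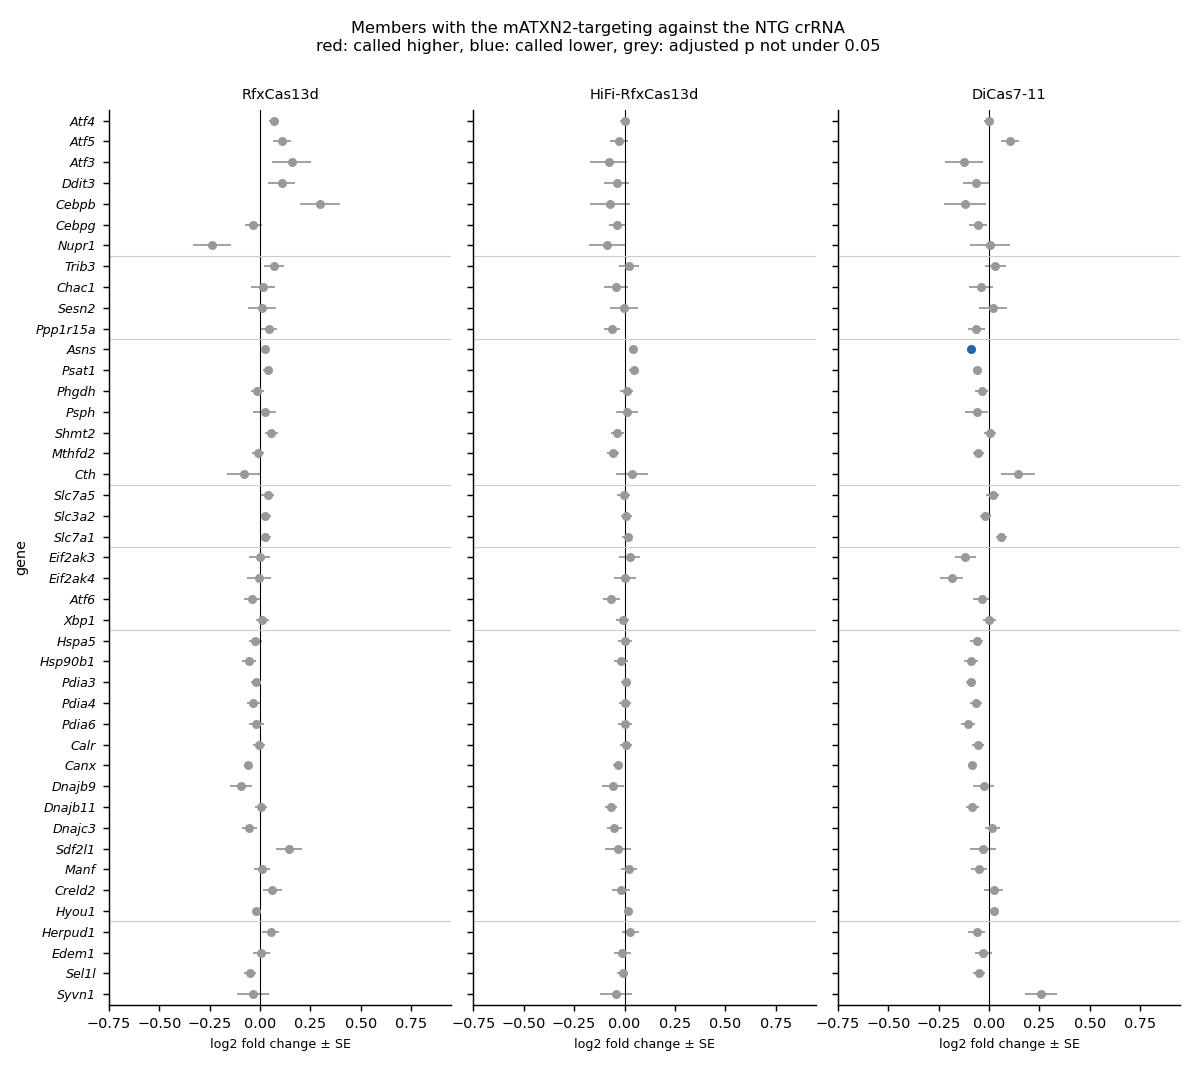
Log2 fold change of the 43 members (rows, by role) with mATXN2 relative to NTG and its SE (bars), for the 3 effectors (panels), on the horizontal scale of the plot against untransfected cells. Points run from -0.24 (Nupr1) to 0.30 (Cebpb) with RfxCas13d, from -0.09 to 0.04 with HiFi-RfxCas13d and from -0.18 to 0.26 with DiCas7-11, where Asns is the only blue one.

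Samples that do not overlap were counted too. The mATXN2 and NTG samples did not overlap in 13 members with RfxCas13d (30.2%, against 20.2% of all genes), 6 with HiFi-RfxCas13d (14%, against 13.2%) and 11 with DiCas7-11 (25.6%, against 14.5%), 9 of the last lower with mATXN2. When the responses of 2 effectors to the crRNA were compared directly, edgeR called 0 members in each of the 3 pairs, with 3, 6 and 6 at an unadjusted p under 0.05 for HiFi-RfxCas13d minus RfxCas13d, DiCas7-11 minus RfxCas13d and DiCas7-11 minus HiFi-RfxCas13d. It called 0% of all genes there, limma-trend called 0 members, and DESeq2 called 0, 0 and 1 (0%, 0.0216% and 0.0216% of all genes). The smallest adjusted p belonged to Asns in the last pair (difference of log2 fold changes -0.13, SE 0.0250, adjusted p = 0.103).

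A wider list of 67 genes of the same responses, of which 63 were tested, gives the surroundings of the members. With the ASO 29 of the 63 were called, 11 higher and 18 lower (46%, against 42.7% of all genes). The largest changes were falls: Creb3l2, an ER-bound transcription factor (log2 fold change -0.89, SE 0.0648, adjusted p = 5.72e-12), Pycr1, which makes proline (log2 fold change -0.83, SE 0.0644, adjusted p = 2.39e-11), and Ddit4, a stress-induced inhibitor of mTORC1 (log2 fold change -0.61, SE 0.0593, adjusted p = 1.78e-09). In the NTG arms of RfxCas13d, HiFi-RfxCas13d and DiCas7-11, 7, 18 and 21 of the 63 were called (11.1%, 28.6% and 33.3%, against 11.3%, 20.9% and 21.9% of all genes), among them Pycr1, lower in each (log2 fold changes -0.43, -0.31 and -0.50), and Eif2ak2, the gene of the double-stranded RNA sensor PKR, higher in all 3 (0.62, 0.29 and 0.45). Slc7a11, the cystine transporter, was higher with RfxCas13d and HiFi-RfxCas13d (0.37 and 0.30), and Ero1a, the oxidase that drives disulfide formation, was lower with HiFi-RfxCas13d and DiCas7-11 (-0.25 and -0.43). Between the crRNA arms, 1 of the 63 was called with RfxCas13d, Erp44, a thiol-binding retention factor (log2 fold change -0.15, SE 0.0363, adjusted p = 0.0254), or 1.59% of the list against 1.39% of all genes. With the other effectors the count was 0 (0.295% and 0.942% of all genes). At an unadjusted p under 0.05 there were 3 with HiFi-RfxCas13d and 18 with DiCas7-11, against 1035 and 1951 of the 13901 genes tested.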

How the data were processed

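Expected counts per gene for 24 libraries of Neuro2A cells, 3 in each of 8 groups, were used as deposited. The authors quantified reads with Salmon (version 1.5.2, with R 4.2.2, per the labels) against the mouse transcriptome of GRCm39 while correcting for sequence-specific and GC bias, and derived gene values by tximport's lengthScaledTPM option, which keeps reads that map to several transcripts; near-identical genes can share such reads. The deposited expected counts are not normalized for library size. They were rounded to whole numbers for the tests, which changes low counts most. The filter of 0.5 CPM in 3 or more samples was applied, and TMM normalization was applied, also to the CPM values printed. edgeR's quasi-likelihood test (version 4.0.16, R 4.3.3) used all 24 samples in a model of 8 group means, with Benjamini-Hochberg adjustment within each of 13 comparisons and a threshold of 0.05. Alternatives were limma-trend (version 3.58.1, prior count of 3, adjustment over 10 comparisons, the procedure of the study as far as stated), DESeq2 (version 1.42.0), another normalization, no filter, a replicate block, only the samples compared, leaving out each library and, added after the data had been seen, thinned libraries and the mATXN2 arms against untransfected cells. Fits without a library were followed call by call for the 25 members and as counts for the rest. Their calls over all genes were not counted. The scripts were tested on simulated data.

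The members and lists were chosen with earlier results of these data known. By the rule set for the text, values in every sample are given for the 20 members with the smallest adjusted p in any comparison and for 9 chosen for their roles (25 in all), and of the wider list the 3 called genes that changed most per comparison. Counts of members with overlapping samples of 2 groups compare the highest and lowest CPM of each. P-values measure the spread between samples, which the study calls biologically independent.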

Additional observations from a re-analysis of the deposited data

How the results depend on the processing

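The 53 calls of named members kept their direction in all 396 alternatives and all 318 fits with a library left out; 33 and 48 of these lost the call, and none of those losses was in the comparison of the ASO with untransfected cells. With only the samples compared, the members called for mATXN2 against NTG were 2 with RfxCas13d (2.55% of all genes) and 0 with DiCas7-11 (0.00719%). In each of the 3 comparisons between NTG arms 0 were called (0.0935% to 0.921% of all genes). Fewer samples enter all of those fits. For mATXN2 against NTG with DiCas7-11, limma-trend gave 6 (4.58% of all genes). DESeq2, no filter and the replicate block gave 3 each (2.06%, 1.48% and 1.81%). Between the NTG arms, HiFi-RfxCas13d against RfxCas13d gave 0 without the filter (1.03% of all genes) and 0 with thinned libraries (0.496%). DiCas7-11 against RfxCas13d gave 2 when thinned (2.43%). DiCas7-11 against HiFi-RfxCas13d gave 7 by DESeq2 (0.928%), 9 without the filter (1.13%), 8 with the replicate block (1.34%) and 1 when thinned (0.504%). For the response of DiCas7-11 minus that of HiFi-RfxCas13d DESeq2 gave 1 (0.0216% of all genes). Apart from the depth of the thinned libraries and the smaller sets of samples, the cause was not tested. The replicate block changed no other count of members by over 1.5 times; deviations of samples with the same number correlated by -0.0548 to 0.0629, and in 0 of 10 comparisons did all 3 pairs exceed 0.1.

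Leaving out each library in turn gave, for mATXN2 against NTG, 0 members with RfxCas13d and with HiFi-RfxCas13d and 0 to 7 with DiCas7-11. Against untransfected cells it gave 3 to 6 for RfxCas13d, 8 to 13 for HiFi-RfxCas13d, 13 to 24 for DiCas7-11 and 28 to 30 for the ASO. Between the NTG arms it gave 0 to 1 for HiFi-RfxCas13d against RfxCas13d, 2 to 15 for DiCas7-11 against RfxCas13d and 1 to 12 for DiCas7-11 against HiFi-RfxCas13d. No share of all genes was worked out for these fits. Over all genes, mATXN2 against NTG called 193, 41 and 131 genes with edgeR for RfxCas13d, HiFi-RfxCas13d and DiCas7-11, 707, 269 and 636 with limma-trend, 274, 66 and 286 with DESeq2, and 434, 201 and 366 without the filter. With 3 samples per group, misses of the threshold do not show that members were alike.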
